A study of Mus musculus with 12 samples.

Results

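Nsd1, Nsd2, Nsd3, Setd2 and Ash1l encode the best known mouse enzymes that methylate lysine 36 of histone H3 (H3K36). They were named by gene symbol, under a rule that used no measured values, and they make up 5 of the 55487 genes in the deposited table. All 5 passed the filter on low values, so all 5 were tested. RNA had been sequenced from gonocytes, which are the testis germ cells that precede spermatogonia, at embryonic days E13.5 and E16.5, at birth (P0) and at postnatal day 3 (P3), with 3 libraries per stage. The cells came from mice carrying the Mvh-Venus transgene, in which the promoter of a germ cell gene drives a fluorescent protein. Titles and source names call every sample WT, whereas the genotype field gives Morc1 (+/-) at E13.5 and P0 and Morc1 (-/-) at E16.5 and P3. Stage and genotype field therefore cannot be told apart between E13.5 and E16.5, E16.5 and P0, P0 and P3, or E13.5 and P3, while P0 against E13.5 and P3 against E16.5 each lie within 1 genotype entry. The labels do not say whether the libraries of a stage came from separate animals or from pooled ones, so p-values measure the spread between these libraries, which may be technical.

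H3K36 methylation is laid down in steps by different enzymes. NSD1, NSD2, NSD3 and ASH1L add the mono- and dimethyl marks (H3K36me1 and H3K36me2), which spread over genes and intergenic DNA, whereas SETD2 travels with elongating RNA polymerase and adds the trimethyl mark (H3K36me3) over the bodies of transcribed genes. The DNA methyltransferases DNMT3A and DNMT3B bind methylated H3K36 through a PWWP domain, and in mice de novo DNA methylation of the male germ line begins in fetal gonocytes and needs DNMT3A, DNMT3L and DNMT3C. NSD1 is known to be required for that methylation in male germ cells, and SETD2 for the corresponding process in oocytes. The question addressed here is how the transcript levels of the 5 enzymes were timed around this fetal window. DNA methylation and H3K36 methylation themselves were not analysed here.

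Under the deposited scaling, Setd2 was the member whose stage means differed most. Its transcript level on that scale was 3.54-fold lower at E16.5 than at the earlier embryonic stage, did not differ detectably between E16.5 and P0, and was higher at P3. With equal library totals it was higher at P0 than at E16.5 (log2 fold change 0.49, beside 0.64 for the median gene tested). Nsd2 rose from P0, its lowest stage under the deposited scaling, to P3. Nsd1, Nsd3 and Ash1l varied less over the 4 stages under the deposited scaling. With equal library totals their log2 fold changes at P0 against E13.5 were 0.77, 1.12 and 1.39, beside 1.35 for the median gene tested. The fall of Setd2 lay between the same stages as the rise of Dnmt3a, Dnmt3c and Dnmt3l.

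Recovered reads assigned to genes numbered 40946616 to 51533747 per library, and each member had 371 to 6305 reads in a library. Values are the authors' normalized counts, that is, reads divided by 1 size factor per library. The deposited size factor averaged 0.939 ± 0.0175 over the E13.5 libraries but 1.94 ± 0.118 over those of P0 (SD, n = 3 each), so the choice of scaling moves any comparison that involves P0. Dividing by library totals instead shifted the log2 fold change of the median gene tested by 0.48 from E13.5 to E16.5, 0.65 from E16.5 to P0 and -0.82 from P0 to P3. Median-of-ratios factors shifted it by 0.21, 0.25 and -0.43, and TMM factors by 0.09, 0.21 and -0.28. With library totals the median gene itself was at 0.79, 0.64 and -0.78 in turn, and at 1.35 for P0 against E13.5. Germ cell markers (Ddx4, Dazl, Mael, Dnd1 and Tdrd1) summed to 244566 to 254461, 232441 to 257754, 133683 to 142168 and 226306 to 244124 normalized counts per library in stage order. Their sum was thus lowest at P0 under the deposited scaling, and none of them was at 0 in all libraries of a stage. Summed Sertoli cell markers ranged over 691 to 1070, 876 to 1633, 1983 to 3451 and 680 to 1184 in stage order. Summed peritubular cell markers ranged over 171 to 224, 1252 to 1867, 3695 to 4157 and 791 to 909 likewise. Leydig cell markers reached 7681 in E16.5 library 4 and 6106 in P0 library 1. The 5 mast cell markers were all at 0 in the E13.5 libraries and summed to 1277 to 2856 at P0. Over all libraries the sums ranged over 66.3 to 2532 for blood cell markers, 38.1 to 1169 for macrophage markers and 577 to 5192 for endothelial markers. The last sum was highest at E13.5, where Pecam1 alone held 4326 to 5074, while the other 3 endothelial markers (Cdh5, Kdr and Tek) were higher at E16.5. Of the macrophage markers, Cd68 alone held 863 to 1049 at E16.5 and 31.4 to 49.1 at P0. Adgre1 went the other way, with means of 47.5 at E16.5 and 72.7 at P0. Of the blood cell markers, Alas2 alone held 1373 to 1549 at E16.5 and 1248 to 1397 at P0. No such list of other cells exceeded 0.0246% of a library's total, but the germ cell list itself reached only 0.675% at most. Such shares of a few genes do not measure the share of cells. The part of these other cells in the values below was not tested, but the results are given without those 2 libraries where that changed a call. In these bulk samples, fewer cells of a type and less RNA per cell cannot be told apart.

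Transcript levels of the members can be compared with each other only per length, here as normalized counts per kb of annotated exons, which depend on the isoforms annotated. Nsd2 had the highest level per kb of the 5 in 12 of 12 libraries, with stage means, from E13.5 to P3 in order, of 293 ± 11.2, 267 ± 14.5, 151 ± 7.39 and 335 ± 41.2 (SD, n = 3 each). At E13.5, Setd2 came second with 144 to 160, just above Nsd1 with 134 to 141, and Nsd3 was lowest with 43.1 to 45.4. At E16.5, Setd2 had dropped to 32.9 to 50.5, which overlapped the 29.3 to 42.1 of Nsd3 and lay below the 86.6 to 108 of Ash1l and the 134 to 154 of Nsd1. Levels of Nsd1 and Ash1l per kb overlapped at P0 (101 to 106 against 97.5 to 103) and at P3 (114 to 118 against 93.4 to 119).

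Expressed as a share of the summed level per kb of the 5 genes, which does not depend on the size factor, Setd2 made up 21.1% ± 0.702, 7.21% ± 1.13, 8.56% ± 0.873 and 13.2% ± 2.44 in stage order (SD, n = 3 each). The 3 libraries at E13.5 (20.6% to 21.9%) lay above all others, and those at P3, the lowest at 11.4%, lay above those at E16.5 and P0. The share of Nsd2 was lowest at P0 with 34.6% ± 0.804 and was 48.2% ± 0.143 at P3. Ash1l had its highest share at P0, with 23.1% ± 1.11 against 12.2% ± 0.989 at E13.5. Nsd3 likewise was highest at P0 with 9.87% ± 0.0455 and held 6.07% to 6.25% as a mean at the other stages. Nsd1 held 24.1% ± 2.18 at E16.5 and 16.8% ± 1.81 at P3. The summed level itself ranged over 702 to 731 in the E13.5 libraries and averaged 587 ± 33.3, 435 ± 14.7 and 696 ± 87.7 at the later stages in order.

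**Figure D1:**
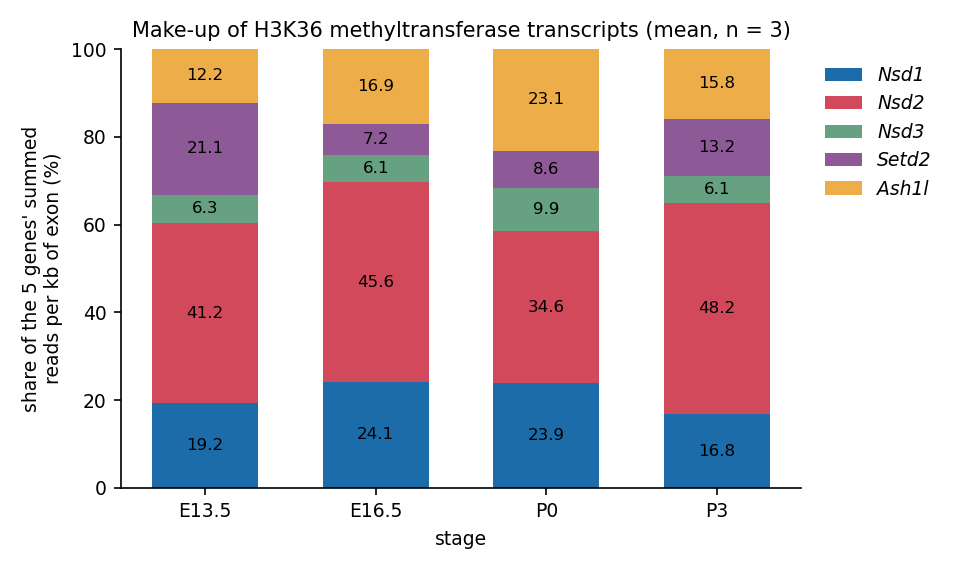
Share of each gene in the summed normalized counts per kb of the 5 H3K36 methyltransferase genes (y axis, percent) at the 4 stages (x axis), as the mean over 3 libraries per stage. Setd2 held 21.1% at E13.5 and 7.21% at E16.5, and Nsd2 held the highest share at every stage.

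Nsd1 encodes the dimethyltransferase that is tied to DNMT3A in male germ cells (ENSMUSG00000021488, chr13:55209782-55318325, plus strand, GRCm38). Libraries 1, 3 and 4 held 2461, 2374 and 2350.3 normalized counts at E13.5, 2368, 2344 and 2698 at E16.5, 1827, 1849 and 1769 at P0, then 1996, 2013 and 2057 at P3. Libraries of E13.5 and E16.5 overlapped, and all 6 lay above those of P0 and P3. From E13.5 to E16.5 the log2 fold change was 0.04 (95% interval -0.11 to 0.20, limma adjusted p = 0.601), so a change of the size seen in Setd2 lay outside the interval under the deposited scaling. It passed as higher with median-of-ratios factors (0.26, adjusted p = 0.00271) and equal library totals (0.55). Nsd1 was 0.44 lower on the log2 scale at P0 than at E16.5 (adjusted p = 5.73e-05), but with equal library totals it passed in the other direction at 0.22 (adjusted p = 0.0212). Against E13.5, within 1 genotype entry, the P0 value was -0.40 (adjusted p = 7.01e-05), which did not pass with TMM factors (-0.09, adjusted p = 0.251) and turned to 0.77 with equal library totals. From P0 to P3 it was 0.16 (adjusted p = 0.0603), which passed as lower with median-of-ratios factors (-0.28) and equal library totals (-0.68). At P3 its log2 fold change against E16.5 was -0.29 (SE 0.0724, adjusted p = 0.00219), a fall that passed the test under each of the 24 alternatives run, at -0.47 to -0.22. Under the deposited scaling, the mean log2 level of Nsd1 spanned 0.44 over the 4 stages. The median span of the 22384 genes tested was 2.30, and only 1.13% of them spanned less than Nsd1.

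Nsd2 encodes an H3K36 dimethyltransferase and was the most highly expressed member per kb (ENSMUSG00000057406, chr5:33820725-33897975, plus strand). The normalized counts in libraries 1, 3 and 4 were 5144, 4855 and 4792 at E13.5, 4481, 4743 and 4256 at E16.5, 2556, 2639.9 and 2395 at P0, then 5014, 5510.3 and 6382 at P3. The P0 libraries were the lowest of the 12, and those of P3 overlapped those of E13.5. From E13.5 to E16.5 the log2 fold change was -0.13 (95% interval -0.31 to 0.04, limma adjusted p = 0.149), and it turned to 0.09 with median-of-ratios factors and 0.37 with equal library totals. From E16.5 to P0, Nsd2 fell by 0.83 on the log2 scale (adjusted p = 2.55e-07), whereas with equal library totals the value was -0.16 and did not pass (adjusted p = 0.0879). Against E13.5 the P0 value was -0.96 (adjusted p = 1.14e-08), turning to 0.21 with equal library totals. From P0 to P3 it rose 2.23-fold (log2 fold change 1.15, SE 0.0839, adjusted p = 2.08e-09), and this rise passed under all 24 alternatives at 0.31 to 1.23. At P3 against E16.5 it was higher by 0.32 (adjusted p = 0.00278), a call lost with median-of-ratios factors (0.14) and equal library totals (0.14). At P3 against E13.5 the log2 fold change was 0.19 (limma adjusted p = 0.0577). This comparison passed as higher under 6 of the 24 alternatives, and its values ran from 0.09 to 0.51 over them.

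Nsd3 encodes the third NSD family enzyme and had the lowest mean level per kb of the 5 at E13.5, E16.5 and P3 (ENSMUSG00000054823, chr8:25601601-25719667, plus strand). Its normalized counts in libraries 1, 3 and 4 were 713, 739.9 and 749.8 at E13.5, 484, 695 and 603 at E16.5, 705, 737 and 685 at P0, then 679, 609.9 and 798 at P3. The E16.5 libraries lay below those of E13.5 and overlapped those of P0 and P3. The log2 fold change from E13.5 to E16.5 was -0.32 (SE 0.127, limma, adjusted p = 0.0290). That call was lost under 8 of the 24 alternatives with the sign kept, among them TMM factors (-0.22, adjusted p = 0.117), without E13.5 library 3 (adjusted p = 0.0633) or 4 (adjusted p = 0.0694), without E16.5 library 1 (-0.18, adjusted p = 0.171), and without E16.5 library 4 and P0 library 1 together (adjusted p = 0.0565), and under a further 1, equal library totals, the value turned to 0.18, also uncalled (adjusted p = 0.220). None of the other 5 comparisons of Nsd3 passed under the deposited scaling, where the test among all stages gave an adjusted p of 0.0998, but several passed under others. Its log2 fold change from E16.5 to P0 was 0.27 as deposited, 0.48 with TMM factors (adjusted p = 0.00360), 0.53 with median-of-ratios factors (adjusted p = 0.00154) and 0.93 with equal library totals, and 0.39 without E16.5 library 3 (adjusted p = 0.0160), all passing but the first. From P0 to P3 it was -0.04 as deposited but passed as lower under those 3 scalings, at -0.33, -0.48 and -0.88. At P0 against E13.5 it passed as higher with median-of-ratios factors (0.43) and equal library totals (1.12). Between P3 and E16.5 it passed only without E16.5 library 3 (0.36, adjusted p = 0.0223). Under the deposited scaling, the span of its stage means, 0.32 on the log2 scale, exceeded that of only 0.420% of genes.

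Ash1l encodes a Trithorax-group enzyme that writes H3K36me2 (ENSMUSG00000028053, chr3:88950622-89079375, plus strand). Its normalized counts in libraries 1, 3 and 4 were 1196, 1307 and 1343 at E13.5, 1285, 1601 and 1551 at E16.5, 1447, 1497 and 1530.0 at P0, then 1386, 1743 and 1763 at P3. Each stage overlapped the next, and the P0 and P3 libraries lay above all of E13.5. No consecutive comparison passed under the deposited scaling, with log2 fold changes of 0.20 (limma adjusted p = 0.0874), 0.02 (adjusted p = 0.893) and 0.12 (adjusted p = 0.305). The first passed with TMM factors (0.30, adjusted p = 0.0190), median-of-ratios factors (0.42, adjusted p = 0.00141) and equal library totals (0.71), and without E16.5 library 1 (0.30, adjusted p = 0.0166). The second passed with median-of-ratios factors (0.28) and equal library totals (0.68), and the last turned to -0.32 and -0.72 under the same scalings and passed as lower. At P0 against E13.5, within 1 genotype entry, Ash1l was at 0.22 (adjusted p = 0.0604). That comparison passed with TMM factors (0.53, adjusted p = 0.000245), median-of-ratios factors (0.70) and equal library totals (1.39), and at 0.22 when only those stages were fitted (adjusted p = 0.0132), without E16.5 library 1 (adjusted p = 0.0382) and without P3 library 1 (adjusted p = 0.0347). Between P3 and E16.5, Ash1l passed only without P3 library 1 (0.25, adjusted p = 0.0409). Ash1l rose 1.27-fold between E13.5 and P3 (log2 fold change 0.34, SE 0.105, adjusted p = 0.00836), and this passed under all 24 alternatives at 0.28 to 0.67. Of its 50-base words of exon sequence, 2.12% also occurred in other genes, and 352 exonic bases overlapped Dap3 on the other strand. For the other 4 members the shared words came to at most 0.0645%.

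Setd2 encodes the enzyme for the trimethyl mark (ENSMUSG00000044791, chr9:110532597-110618633, plus strand). Normalized counts in libraries 1, 3 and 4 were 1723, 1554 and 1577 at E13.5, 354, 543 and 476 at E16.5, 369, 464 and 371 at P0, then 759.7, 886 and 1357 at P3. Every E13.5 library exceeded every later one, every P3 library exceeded those of E16.5 and P0, and the latter stages overlapped. From E13.5 to E16.5, Setd2 fell by 1.84 on the log2 scale (SE 0.184, limma adjusted p = 9.25e-08), and the fall passed under all 24 alternatives at -1.98 to -1.33. Between P0 and E13.5, both with the entry Morc1 (+/-), the log2 fold change was -2.02 (adjusted p = 2.15e-08), and between P3 and E16.5, both with the entry Morc1 (-/-), it was 1.11 (adjusted p = 5.04e-05). Both also passed under all 24 alternatives, the first at -2.12 to -0.85 and the second at 0.86 to 1.28. The smallest P0 value, -0.85, came from equal library totals (adjusted p = 0.000824), beside -1.70 with TMM and -1.54 with median-of-ratios factors. At P3 against E13.5 it was -0.74 (adjusted p = 0.00195), which with equal library totals was -0.41 and did not pass (adjusted p = 0.0794). The log2 fold change from P0 to P3 was 1.28 (adjusted p = 8.56e-06), whereas equal library totals gave 0.44, which did not pass (adjusted p = 0.0519). From E16.5 to P0 it was -0.18 (95% interval -0.57 to 0.22, adjusted p = 0.427), and its sign turned under TMM factors (0.04), median-of-ratios factors (0.08) and equal library totals (0.49), and the last passed as higher (adjusted p = 0.0380). Under the deposited scaling, the stage means of Setd2 spanned 2.02 on the log2 scale, below the median span of 2.30 over all genes tested. Of those genes, 42.4% spanned less than Setd2.

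Setd2 varied more between libraries of a stage than the other members did at P3. E16.5 library 1 lay 0.35 below its stage mean on the log2 scale, P3 library 1 also lay 0.35 below, and P3 library 4 lay 0.48 above. In the same libraries the median of genes with at least 8 kb of exons moved by -0.07, -0.05 and 0.06 relative to the median of all genes with a mean of at least 100 normalized counts. Over those 2334 long genes the median log2 fold change from E13.5 to E16.5 was -0.19, and 7.84% of them had a lower value than Setd2. Without P3 library 4 the log2 fold change of Setd2 from P0 to P3 was 1.04.

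**Figure D2:**
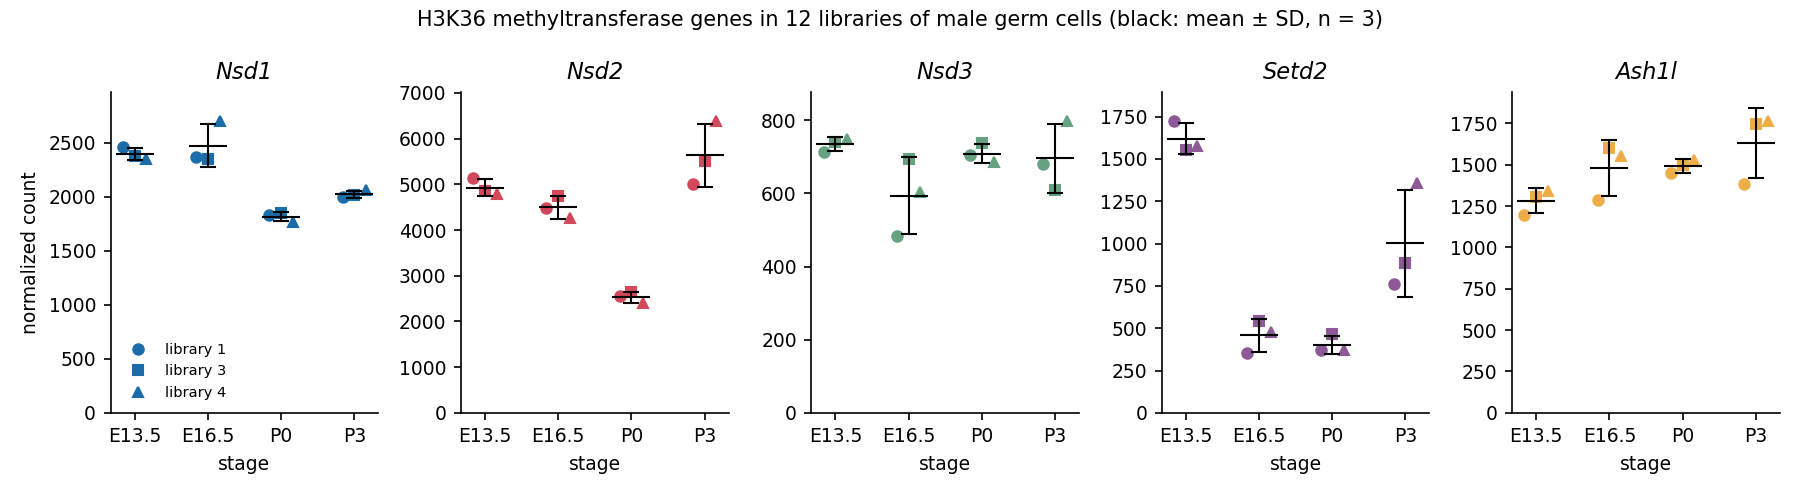
Normalized counts (y axis, linear and starting at 0, 1 scale per gene) of the 5 genes at the 4 stages (x axis). Points are single libraries and bars are means with SD (n = 3); the Setd2 libraries at E13.5 lie between 1554 and 1723 and those at E16.5 between 354 and 543.

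Read against all genes under the deposited scaling, the members were called no more often than other genes in any comparison. Between E13.5 and E16.5, 0 members were higher and 2 were lower (Nsd3 and Setd2), while 80.1% of all 22384 genes tested were called, 45.5% higher and 34.6% lower. From E16.5 to P0, 2 members were lower (Nsd1 and Nsd2) and 0 were higher, against 61.0% of genes called, 33.4% lower and 27.6% higher. From P0 to P3, 2 were higher (Nsd2 and Setd2) and 0 lower, against 76.5%, with 40.1% higher and 36.4% lower. Between P0 and E13.5, 3 members were lower (Nsd1, Nsd2 and Setd2), against 86.1% of genes called, 40.5% lower and 45.7% higher. Between P3 and E16.5, Nsd2 and Setd2 were higher and Nsd1 lower, so 2 members were higher and 1 lower, against 69.5% of genes called, 34.2% higher and 35.2% lower. Between P3 and E13.5, 1 member was higher (Ash1l) and 2 were lower (Nsd1 and Setd2), against 70.4% of genes called, 39.2% higher and 31.2% lower. The test among the 4 stages called 4 of the 5 members and 95.2% of all genes. Median log2 fold changes of the 5 members were -0.13, -0.18 and 0.16 over the 3 consecutive comparisons, beside 0.31, -0.01 and 0.05 for all genes. With equal library totals the members' medians turned to 0.37, 0.49 and -0.68, beside 0.79, 0.64 and -0.78 for all genes. The counts were then 3 higher and 1 lower, 4 higher and 0 lower, and 1 higher and 3 lower. At P0 against E13.5, 4 members were higher and 1 was lower with that scaling. The shares of all genes called with equal library totals are not given here, so these counts cannot be read against them. Of the 15 member changes called in the 6 comparisons, 6 passed in the same direction under every one of the 24 alternatives, namely Setd2 at E16.5 and at P0 against E13.5 and at P3 against E16.5, Nsd2 at P3 against P0, Nsd1 at P3 against E16.5, and Ash1l at P3 against E13.5.

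**Figure D3:**
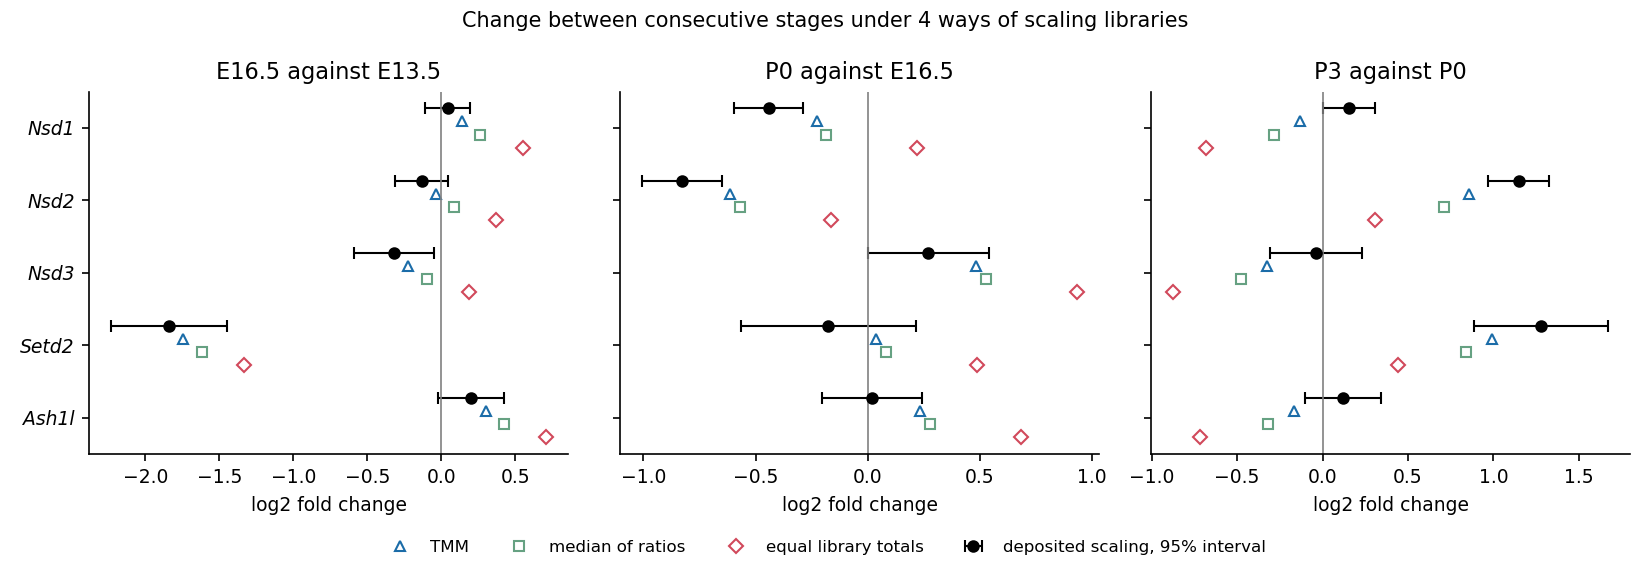
Log2 fold change (x axis) of the 5 genes (y axis) in the 3 consecutive comparisons, under 4 ways of scaling the libraries; filled points show the deposited scaling with its 95% interval from limma. The Setd2 fall at E16.5 and the Nsd2 rise at P3 keep their sign under every scaling shown, whereas each of the 5 genes changes sign with the scaling in at least 1 of the 3 comparisons.

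A ratio between 2 members within a library does not depend on how libraries are scaled. Each of the 10 pairs was tested among the 4 stages with an exact permutation test over 369600 arrangements of the 12 libraries, which can give a p of 6.49e-05 at the smallest. All 10 ratios differed among stages after Benjamini-Hochberg adjustment over the 10 pairs. The pairs share genes, so the 10 tests are not independent. Ratios of other gene pairs were not tested, and limma called 95.2% of all genes among the 4 stages. The count of 10 therefore cannot be read as particular to these genes. The log2 ratio of Nsd1 to Setd2 averaged 0.57, 2.45, 2.18 and 1.06 in stage order (exact permutation, adjusted p = 0.00130), and the ratio was higher in all 3 E16.5 libraries than in any E13.5 library. The log2 ratio of Setd2 to Ash1l averaged 0.34, -1.71, -1.90 and -0.74 in stage order (exact permutation, adjusted p = 0.000649). Among the dimethyl writers, the ratio of Nsd1 to Nsd2 averaged -1.04, -0.86, -0.48 and -1.47 on the log2 scale (exact permutation, adjusted p = 0.000325). The pair with the smallest span was Nsd3 and Ash1l, with log2 ratios of -0.80, -1.32, -1.07 and -1.23 (exact permutation, adjusted p = 0.0132), and this p reached 0.0479 when 1 library was left out.

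The 4 genes of de novo DNA methylation moved on a different scale over the same stages. Dnmt3a, which encodes the main de novo methyltransferase of the germ line, had 5427, 5169.9 and 5165 normalized counts in E13.5 libraries 1, 3 and 4, 57584, 52667 and 48163 at E16.5, 20179, 19491 and 19709 at P0, then 13160.5, 13189 and 14540.3 at P3. The E16.5 libraries lay above all others and the E13.5 libraries below. Its log2 fold change was 3.33 from E13.5 to E16.5 and -1.41 from E16.5 to P0. Dnmt3l, the catalytically inactive cofactor, had 12.6 to 23.2, 19086 to 22397, 6195 to 7139 and 502 to 564 normalized counts over the stages in order, with log2 fold changes of 10.12, -1.62 and -3.65 in turn. Dnmt3c, the rodent enzyme that methylates promoters of young transposons, followed with 18.5 to 48.6, 2049 to 2341, 550.5 to 613 and 32.0 to 44.2, although 23.6% of its 50-base exon words also occur in other genes. Dnmt3b had 194 to 317 at E13.5 and was highest at P3, with 1865 to 2181 and a log2 fold change of 2.28 from P0. The rises of Dnmt3a, Dnmt3c and Dnmt3l at E16.5, their falls from E16.5 to P0 and the rise of Dnmt3b at P3 passed under all alternatives run.

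Set beside these genes, no member passed as higher from E13.5 to E16.5 under the deposited scaling. With TMM factors Ash1l did (0.30), with median-of-ratios factors Nsd1 and Ash1l did (0.26 and 0.42), and with equal library totals Nsd1, Nsd2 and Ash1l did, at 0.55, 0.37 and 0.71 on the log2 scale. The median gene tested was at 0.40, 0.52 and 0.79 under these scalings in turn. The log2 ratio of Dnmt3a to Nsd1 within a library averaged 1.13 ± 0.00957, 4.42 ± 0.232, 3.45 ± 0.0428 and 2.75 ± 0.0610 in stage order (SD, n = 3 each). Per kb of exons, Dnmt3a was at 2.30 times the level of Nsd1 at E13.5 and 22.5 times at E16.5. The log2 ratio of Dnmt3a to Setd2 was 1.70 ± 0.0405, 6.87 ± 0.413, 5.63 ± 0.209 and 3.81 ± 0.354 at the same stages, so the gap to Setd2 widened more than that to Nsd1. Per kb, Dnmt3a was at 74.6 times the level of Setd2 at E16.5. At P3, when Dnmt3l and Dnmt3c had fallen, Setd2 and Nsd2 had risen from P0 under the deposited scaling. Because only these 4 stages were sampled, the order of the changes between E13.5 and E16.5 could not be read.

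**Figure D4:**
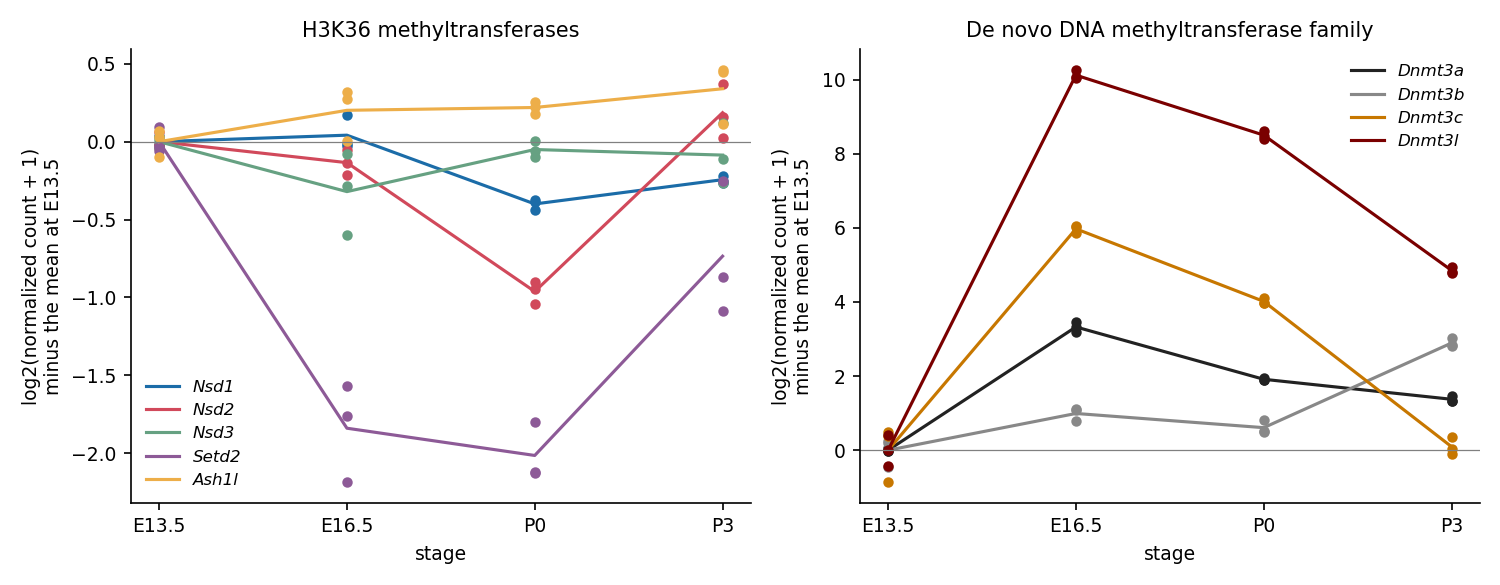
Log2(normalized count + 1) minus the gene's mean at E13.5 (y axis; points are libraries and lines join stage means) at the 4 stages (x axis), for the 5 H3K36 methyltransferase genes in 1 panel and the 4 de novo DNA methylation genes in the other; the panels have different y scales. Setd2 lies 1.84 below its E13.5 level at E16.5, where Dnmt3a lies 3.33 and Dnmt3l 10.12 above theirs.

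Other genes of the H3K36 pathway were described by lists, to be read against the shares of all genes called higher and lower. Under the deposited scaling these were 45.5% and 34.6% at E16.5, 27.6% and 33.4% at P0, and 40.1% and 36.4% at P3, each against the stage before. The shares under the other scalings are not given here, so list counts with equal library totals cannot be read against them. Of 3 further genes reported to methylate H3K36, Prdm9 marks meiotic recombination sites and had 69.6 to 125 normalized counts in all libraries. Prdm9 passed no consecutive comparison under the deposited scaling. From P0 to P3 it passed as lower with TMM factors, median-of-ratios factors and equal library totals. From E13.5 to E16.5 it passed as higher with equal library totals. Smyd2 had a log2 fold change of -1.59 from E13.5 to E16.5 and 1.77 from P0 to P3, and Setmar of -2.49 from E16.5 to P0 and 2.23 from P0 to P3. Of 6 demethylases, 1 was higher and 2 were lower at E16.5 than at E13.5, 4 were lower at P0 than at E16.5, and 3 were higher and 3 lower at P3 than at P0; with equal library totals the counts higher and lower were 4 and 2, 2 and 2, and 1 and 5. Kdm4a, which removes trimethyl marks from H3K9 and H3K36, had 574.5 to 661, 2845 to 3324, 1399 to 1766 and 214 to 335 normalized counts in stage order. Its libraries at E16.5 exceeded all others, with log2 fold changes of 2.30, -1.01 and -2.46 in turn. Kdm4c, of the same family, moved the other way at E16.5 (-1.84) and fell at P3 (-1.16). Riox1 had log2 fold changes of -1.71, -1.50 and 2.69, and 30.5% of its 50-base exon words also occur in other genes.

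Of 13 readers of methylated H3K36, 5 were higher and 8 lower at E16.5 than at E13.5 (median log2 fold change -0.86, beside 0.31 for all genes), and this count was the same under all 4 scalings. Lower readers included Msh6, a mismatch repair protein (-2.01), Zmynd11, a reader of H3K36me3 on histone H3.3 (-1.98), Hdgfl2 (-1.81), Mtf2, a Polycomb partner (-1.65), Psip1 (-1.54) and Phf19 (-1.50). Higher ones were Dnmt3a and Dnmt3b, which are also among the de novo methylation genes above, and Glyr1, Phf1 (1.56) and Zcwpw1 (1.21), the last a reader in meiosis. From E16.5 to P0, 2 readers were higher and 8 lower, and from P0 to P3, 10 were higher and 2 lower, but with equal library totals these counts became 5 and 5, and 4 and 6. Of 7 partners of SETD2 and ASH1L, 1 was higher and 6 lower at E16.5 than at E13.5 (median -0.86), and 1 and 4 with equal library totals. The higher one was Supt6, with means of 4839 normalized counts at E13.5 and 6766 at E16.5. Supt6 then had a log2 fold change of -1.48 from E16.5 to P0. Among the lower ones were the elongation factor Iws1 (-1.07), the SETD2-binding RNA protein Hnrnpl (-1.57) and the histone chaperone Rbbp4 (-2.26). Morf4l1 is on both the reader and the partner list and is the median gene of each at E16.5, so those medians are 1 value. From P0 to P3, 6 partners were higher and 1, Supt6, was lower, with a median of 1.23 beside 0.05 for all genes. With equal library totals 4 were higher and 2 lower. Exon words shared with other genes came to 17.2% for Rbbp4, 24.7% for Smyd2 and 28.3% for Phf1, and 43.8% of the exonic bases of Phf1 overlapped genes on the other strand.

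**Figure D5:**
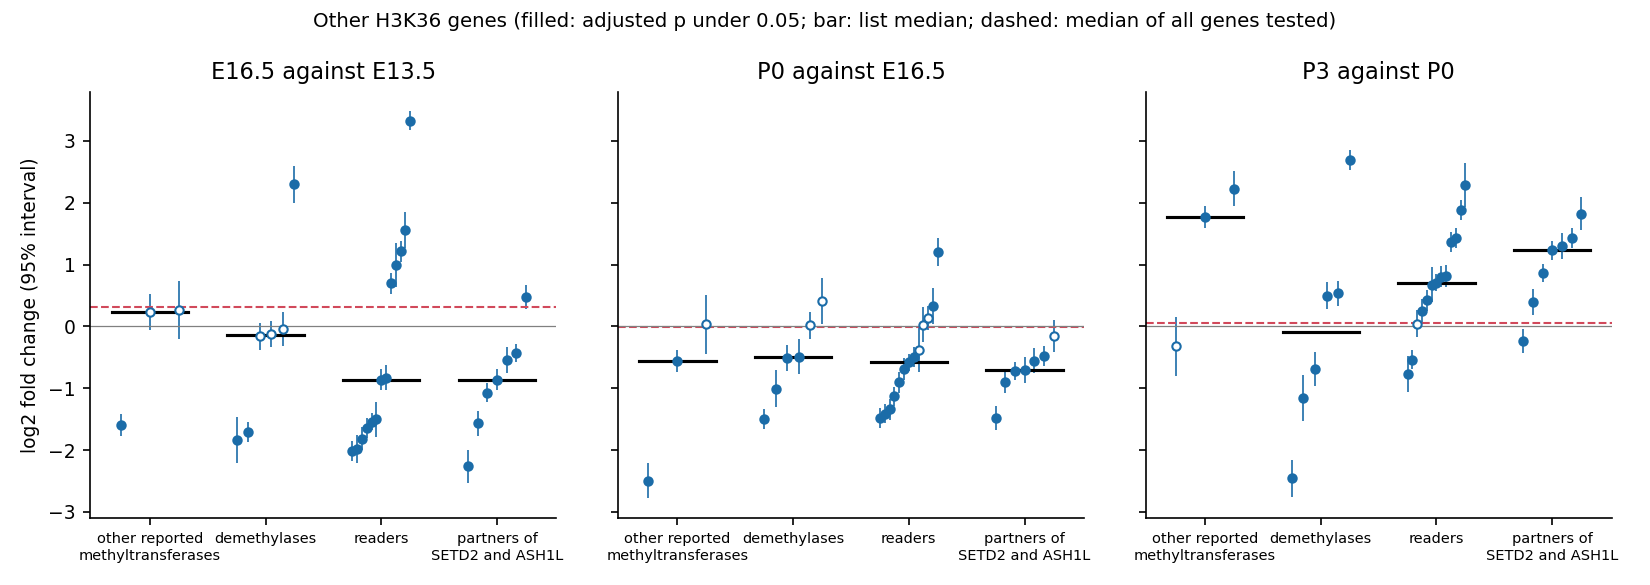
Log2 fold change (y axis, with 95% interval) of each gene of the other H3K36 lists (x axis, 1 column per list) in the 3 consecutive comparisons under the deposited scaling; filled points passed limma at an adjusted p under 0.05, bars are list medians and the dashed line is the median of all genes. At E16.5, 8 of 13 readers and 6 of 7 partners were lower; at P3, the reader counts turn with equal library totals (4 higher and 6 lower).

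For each member the genes with the most similar pattern were taken as those with the smallest root mean square difference in centred log2 level over the 12 libraries, among 12197 named genes with a mean of at least 100 normalized counts. For Setd2 they were Mcm3ap (0.159), Atp7a (0.163) and Nup210 (0.165), beside a median distance of 0.841 over all candidates. Mcm3ap averaged 3316, 890.5, 861 and 1831 normalized counts in stage order. Nsd2 was nearest to Nploc4 (0.0580), Erlin1 (0.0636) and Mfn2 (0.0787), and Nsd1 to Rbms2 (0.0591), Efnb3 (0.0938) and Dtnb (0.106). Nsd3 was nearest to Samd4b (0.0947), Nr2c2 (0.134) and Tti2 (0.135), and Ash1l to Neo1 (0.120), Foxp1 (0.122) and Pacs2 (0.126). Between members, the nearest pair was Nsd3 and Ash1l with a distance of 0.230, and Setd2 lay 0.633 to 0.906 from the other 4. All these distances share the 12 libraries and their scaling.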

How the data were processed

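Gonocyte RNA libraries were made with low-input kits, per the labels' protocols. The authors deposited 1 table whose signal is a read count per gene divided by 1 RLE size factor per library. The submitters' processing notes name bcl2fastq 2.20, cutadapt 1.18, HISAT2 2.1.0, featureCounts 1.5.2 and DESeq2 1.26.0, with mm10 and GRCm38. The annotation release, strand setting and treatment of multiply mapped reads are not given in the sources used here. In each library 100% of the deposited values were whole multiples of the smallest value (tolerance 0.001), so whole reads were recovered. RLE is a name for the median-of-ratios method, but median-of-ratios factors computed here from the recovered reads differed from the deposited ones. On a common geometric mean, P0 library 1 had 1.60 as deposited and 1.33 as computed. E13.5 library 1 had 0.789 and 0.906. The cause of this difference was not tested. Within stages, libraries differed by more than sampling noise (chi-square per gene 5.44 to 19.1), so all 12 were kept.

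Symbols matched 55141 of 55487 identifiers; exon lengths and positions came from GENCODE M21 on GRCm38. Columns carry a stage and the numbers 1, 3 and 4 and were assigned to stages only. The whole table was fitted with limma 3.58.1 in R 4.3.3 (trended eBayes) on log2(normalized count + 1), keeping 22384 genes that reached 10 normalized counts in 3 or more libraries, with all stages in 1 fit and 8 residual degrees of freedom. The threshold was a Benjamini-Hochberg adjusted p under 0.05 in each of 6 comparisons and an F-test. Fold changes on this scale understate the change of low genes. The members were named by symbol alone, but they and the lists were chosen with earlier results of these data known. Named genes are the members, genes of the lists, and the 3 genes most alike each member; values are given for listed genes that were called with a log2 fold change of 1 or more in size.

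Alternatives were TMM, median-of-ratios and equal-total scaling, a pseudocount of 0.1 or 10, genes unfiltered or kept from a mean of 100 upwards, only the 2 stages compared, each library left out in turn, and, chosen after seeing the data, E16.5 library 4 and P0 library 1 left out together, and the column number as a block. Recovered reads were tested with edgeR 4.0.16 and DESeq2 1.42.0. edgeR called 17851 genes from E13.5 to E16.5, 14370 from E16.5 to P0 and 17358 from P0 to P3, beside 17932, 13658 and 17122 for limma. On simulated data with 200 genes changed 4-fold at P0, limma recovered 100% of them in P0 against E16.5 and called 10 unchanged genes among 21188 tested. Size factors were known in that simulation, and in the real data 61.0% of genes were called in this comparison. The simulation therefore does not bear on the choice of scaling or on changes smaller than 4-fold. Other steps used Python 3.11.15 with scipy 1.17.1, pandas 2.3.3, numpy 2.4.6 and matplotlib 3.10.9.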

Additional observations from a re-analysis of the deposited data

How the results depend on the processing

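Counts over all genes moved by over 1.5 times only with a mean of at least 100, where fewer genes are tested: 13040 among stages, 11459 at E16.5 against E13.5, 11249 at P3 against P0 and 11968 at P0 against E13.5, beside 21300, 17932, 17122 and 19280. Of the 5 members, 2 changed from E13.5 to E16.5; the count was 4 with equal library totals, 1 with no filter, with only the 2 stages and without E16.5 library 4 and P0 library 1 together, and 1 to 2 when each library was left out in turn. With median-of-ratios factors and with equal library totals it was 4 and 4 from E16.5 to P0 and 5 and 4 from P0 to P3, and with equal library totals it was 5 at P0 against E13.5. Under the deposited scaling 80.1% of all genes tested were called from E13.5 to E16.5, 61.0% from E16.5 to P0, 76.5% from P0 to P3 and 86.1% at P0 against E13.5. The shares under these alternatives are not given here, so the member counts cannot be read against them.

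Signs of log2 fold changes turned as follows. With TMM factors, P3 against P0 was -0.13 for Nsd1 and -0.17 for Ash1l, P0 against E13.5 was 0.26 for Nsd3, and P0 against E16.5 was 0.038 for Setd2. With median-of-ratios factors, P3 against P0 was -0.28 for Nsd1 and -0.32 for Ash1l, P0 against E13.5 was 0.080 for Nsd1 and 0.43 for Nsd3, E16.5 against E13.5 was 0.087 for Nsd2, P0 against E16.5 was 0.082 for Setd2, and P3 against E16.5 was -0.044 for Ash1l. With equal library totals, Nsd1 was 0.22 at P0 against E16.5, -0.68 at P3 against P0, 0.77 at P0 and 0.085 at P3 against E13.5; Nsd2 was 0.37 at E16.5 and 0.21 at P0 against E13.5; Nsd3, against E13.5, was 0.18 (E16.5), 1.12 (P0) and 0.24 (P3); Setd2 was 0.49 at P0 against E16.5; and Ash1l was -0.72 at P3 against P0 and -0.039 at P3 against E16.5. Leaving out each library in turn gave -0.023 to 0.078 for Nsd1 at E16.5 against E13.5 (-0.023 also without E16.5 library 4 and P0 library 1 together), -0.14 to 0.055 for Nsd3 at P3 against P0, -0.19 to 0.0043 for Nsd3 at P3 against E13.5, and -0.080 to 0.078 for Ash1l at P0 against E16.5. The cause was not tested. The 10 ratios between members passed under all 14 alternatives, and the 43 consecutive fold changes of listed non-members that were called with a size of 1 or more kept direction and call in 1032 of 1032 recomputed values.

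Column heads are numbered 1, 3 and 4 and sample titles 1 to 3, and no label says that a number pairs libraries. Deviations from the stage means correlated at -0.11 to 0.18 between libraries with the same column number, over 0.1 in 3 of 18 pairs, and 3 of 12 libraries correlated best with their own number. With that number as a replicate block, chosen after seeing the data, Ash1l passed at E16.5 (0.20, adjusted p = 0.0359) and P0 (0.22, adjusted p = 0.0221) against E13.5, counts of calls stayed within 1.5 times, and no other call of a member changed. Each member had 371 reads or more in every library.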
